A study of Mus musculus with 38 samples.

Results

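The transcripts described are those of 10 chemokines that draw B cells, T cells and myeloid cells, <i>Cxcl13</i>, <i>Cxcl9</i>, <i>Cxcl10</i>, <i>Cxcl16</i>, <i>Ccl2</i>, <i>Ccl7</i>, <i>Ccl12</i>, <i>Ccl8</i>, <i>Ccl5</i> and <i>Ccl3</i>, in the mouse hypothalamus. They are 10 of the 19937 gene symbols with at least 1 probe set of their own on the array. A probe set is the group of probes that measures a transcript, and each of the 10 genes had exactly 1 probe set that carries its symbol alone, so that all 10 were measured on every array and none was lost to a filter.

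RNA from the hypothalamus of female FVB/N mice (38 in all) was hybridized to Affymetrix Mouse Gene ST arrays, each array holding 1 mouse. The 79Q group (8 mice) and the 18Q group (5 mice) were wild-type mice given a bilateral hypothalamic injection of an adeno-associated vector (rAAV5) at 8 weeks of age, and their tissue was taken 4 weeks later, at 12 weeks of age. The vector carried the first 853 amino acids of human huntingtin (HTT) with 79 CAG repeats (mutant) or 18 CAG repeats (wild-type length) behind the human Synapsin-1 promoter, which is active in neurons. The WT control group (5 mice, 12 weeks of age) received no injection, and no group received a vector without HTT, so that surgery, vector and HTT fragment cannot be told apart in 79Q vs. WT or 18Q vs. WT. BACHD mice carry full-length human mutant HTT with 97 CAG repeats, expressed throughout the body, and were compared with age-matched WT mice at 10 months (5 BACHD and 3 WT) and at 2 months (6 BACHD and 6 WT).

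Chemokines are small secreted proteins that bind to receptors on the surface of leukocytes and guide their movement along a gradient. The CXC family members CXCL9 and CXCL10 act on CXCR3 of activated T cells and NK cells, CXCL16 acts on CXCR6, and CXCL13 acts on CXCR5 and gathers B cells in lymphoid follicles. Among the CC family members, CCL2, CCL7 and CCL12 act on CCR2 and draw monocytes, CCL3 and CCL5 act on CCR1 of T cells and myeloid cells, and mouse CCL8 acts on CCR8. In the healthy brain these genes are expressed at a low level, and glial cells and blood-borne leukocytes can make their products during inflammation.

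All values below are log2 intensities after Robust Multi-Array Averaging (RMA), so that a difference of 1 stands for a doubling of the signal. Array medians ran between 7.16 and 7.46 over the 38 arrays, and the mean of 11 hypothalamic marker genes (among them <i>Pomc</i>, <i>Hcrt</i> and <i>Pmch</i>) between 9.24 and 10.3. The mean of the thalamic markers ran between 8.51 and 9.33 in the 18 arrays of the vector experiment, between 8.47 and 10.01 in the 8 arrays of the 10 months mice and between 8.31 and 10.6 in the 12 arrays of the 2 months mice. The pituitary markers ran between 6.53 and 8.89 in the vector experiment, between 6.02 and 8.41 at 10 months and between 6.50 and 11.03 at 2 months. The part of neighbouring tissue in the differences below was not tested. The 3 experiments were taken as normalized separately, and levels were compared only within each of them. A gene is called when its adjusted p (limma, Benjamini-Hochberg over all 34760 probe sets) is under 0.05.

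In 79Q vs. WT, 9 of the 10 chemokines rose and <i>Ccl7</i> did not pass the test, whereas 1.49% of all probe sets were called higher in that comparison. In 18Q vs. WT, 9 of 10 rose and <i>Ccl8</i> did not pass, with 1.81% of all probe sets called higher. None fell, with 0.581% (79Q) and 0.308% (18Q) of all probe sets called lower. Both comparisons use the same 5 WT control mice. The median log2(FC) of the 10 genes was 1.11 in 79Q vs. WT and 1.32 in 18Q vs. WT. That of all probe sets was -0.02 and -0.01. Since the 10 genes were chosen with earlier results of these data known, their excess over all probe sets is no independent finding. All 8 of the 79Q mice lay above all 5 WT control mice for 10 of 10 genes, a separation that 1.77% of all probe sets showed. All 5 of the 18Q mice did so for 9 of 10 genes, as did 2.57% of all probe sets. The RNA came from whole tissue, in which more cells of a type and more RNA per cell cannot be told apart.

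**Figure D1:**
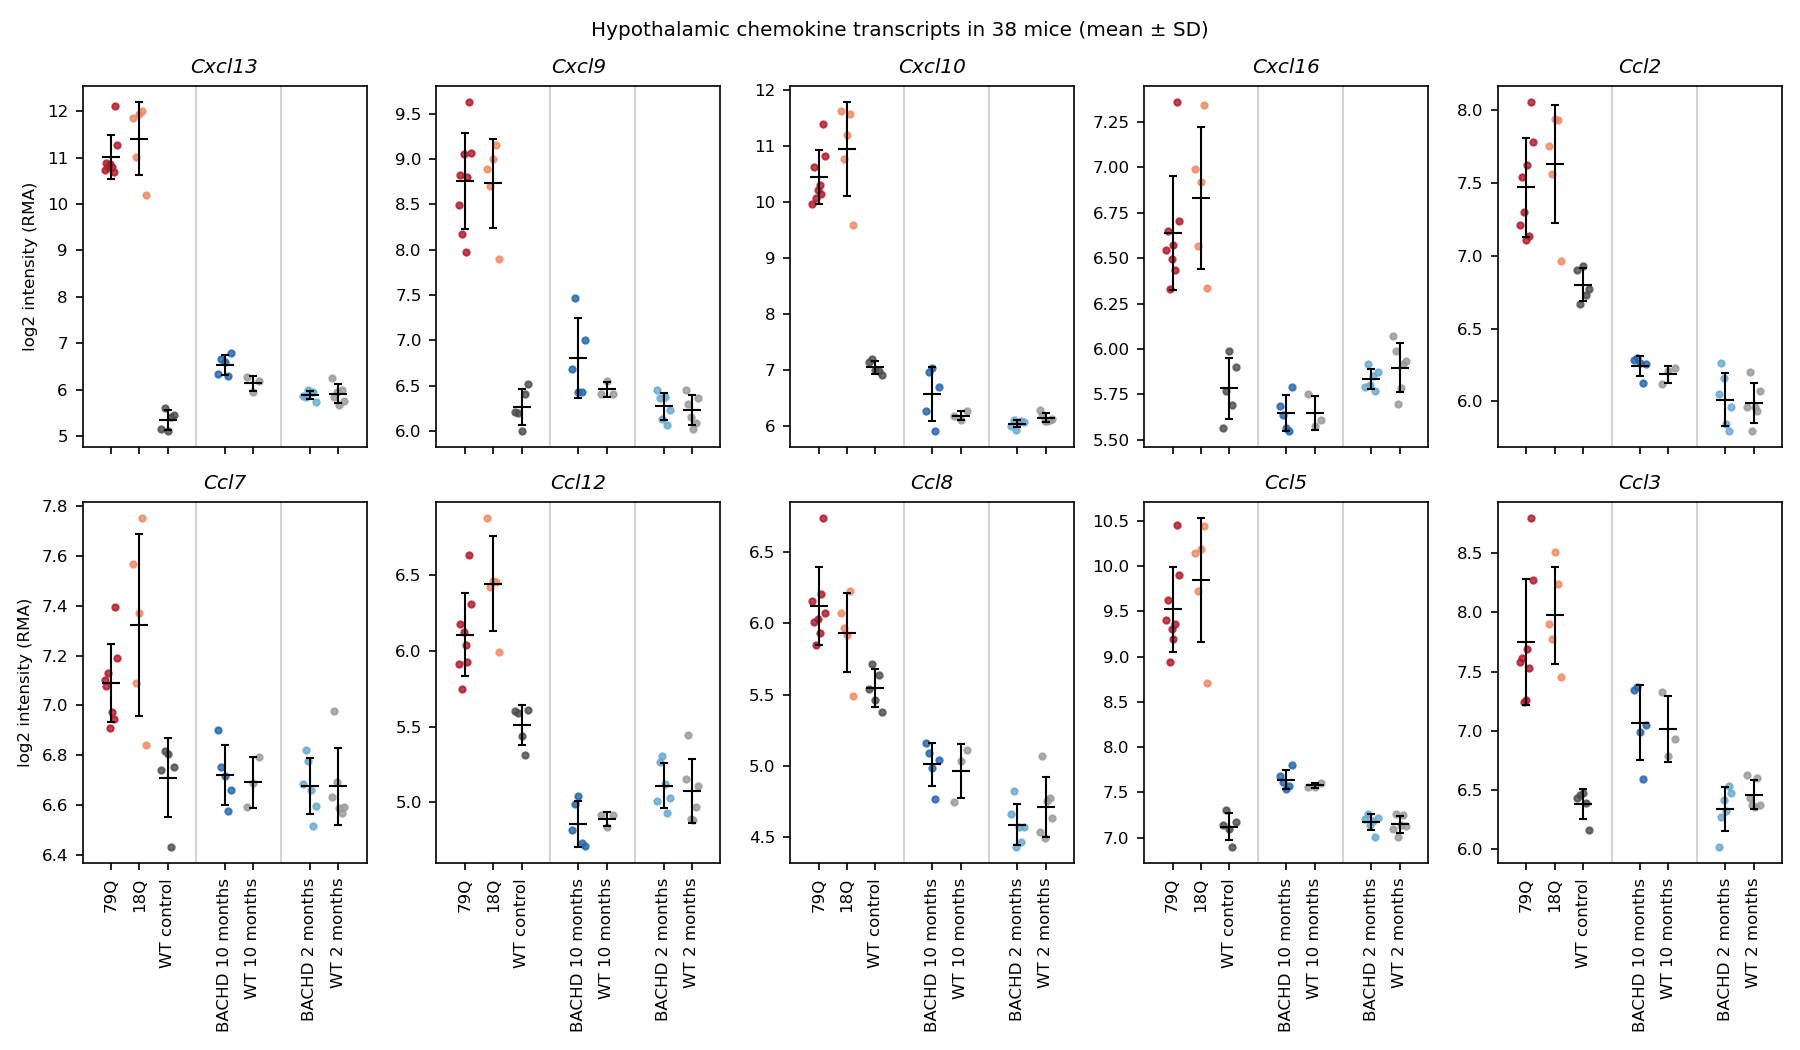
Log2 intensity of each chemokine (vertical axis, its own scale in each panel) in every mouse, by group along the horizontal axis; points are mice, bars give the mean and SD, and vertical lines separate the 3 experiments, whose levels are not comparable. For <i>Cxcl13</i> the 79Q mice lie between 10.70 and 12.13 and the 18Q mice between 10.19 and 12.01, against 5.10 to 5.61 in WT control mice.

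<i>Cxcl13</i>, the B cell attractant, had the largest difference of the 10. Its values were 10.70 at the lowest, 10.83 at the median and 12.13 at the highest of the 8 mice in 79Q. The 18Q mice had 11.86, 11.03, 11.95, 12.01 and 10.19, against 5.14, 5.61, 5.10, 5.40 and 5.46 in WT control mice. The lowest injected mouse thus lay 4.59 above the highest control. The log2(FC) was 5.68 ± 0.28 in 79Q vs. WT (SE, adjusted p = 4.0e-09) and 6.07 ± 0.31 in 18Q vs. WT (adjusted p = 7.6e-09), or 51-fold and 67-fold in signal.

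<i>Cxcl10</i> and <i>Cxcl9</i>, the CXCR3 ligands, lie close together on chromosome 5, with only <i>Art3</i> between them. <i>Cxcl10</i> reached 9.96, 10.26 and 11.39 in 79Q mice (lowest, median and highest). Its values were 11.63, 10.76, 11.20, 11.57 and 9.59 in 18Q mice, against 7.14, 7.197, 6.99, 6.98 and 6.90 in WT control mice. No injected mouse overlapped with the controls, and the log2(FC) was 3.40 ± 0.29 in 79Q (adjusted p = 1.7e-06) and 3.91 ± 0.32 in 18Q (adjusted p = 1.3e-06). <i>Cxcl9</i> had 7.98, 8.81 and 9.62 in 79Q mice. In 18Q mice it had 8.89, 8.70, 9.01, 9.16 and 7.90, against 6.21, 6.199, 5.998, 6.41 and 6.51 in WT control mice. Here the separation was narrower, and the log2(FC) was nearly equal in both injected groups, with 2.49 ± 0.24 in 79Q (adjusted p = 8.2e-06) and 2.47 ± 0.27 in 18Q (adjusted p = 2.6e-05).

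The third CXC ligand of T cells, <i>Cxcl16</i>, is made as a membrane protein from which the chemokine domain is shed. Its values in 79Q mice were 6.33, 6.56 and 7.36 at the lowest, median and highest. The 18Q mice had 6.99, 6.56, 6.92, 7.34 and 6.33, against 5.57, 5.77, 5.99, 5.69 and 5.90 in WT control mice. It rose by 0.85 ± 0.16 in 79Q (adjusted p = 0.0069) and by 1.05 ± 0.18 in 18Q (adjusted p = 0.00257), and again no injected mouse lay within the control range.

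The RefSeq promoter table (GRCm38.p6) holds 6 of the 10 genes, <i>Cxcl13</i>, <i>Cxcl9</i>, <i>Cxcl10</i>, <i>Ccl12</i>, <i>Ccl8</i> and <i>Ccl3</i>. The 250 bases before the start site are shown for the 3 CXC genes with the largest differences, 5′ to 3′ on the gene's own strand. Capitals mark matches to the core of the interferon-stimulated response element (GAAANNGAAA), to the interferon-gamma-activated site (TTCNNNGAA) or to the NF-kappaB consensus, each searched on both strands.
Cxcl13, chr5:95956689-95956938, + strand: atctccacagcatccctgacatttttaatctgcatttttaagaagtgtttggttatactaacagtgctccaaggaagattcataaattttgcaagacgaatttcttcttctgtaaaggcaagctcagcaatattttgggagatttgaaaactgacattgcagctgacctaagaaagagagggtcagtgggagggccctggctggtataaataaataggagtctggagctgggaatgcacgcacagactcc
Cxcl10, chr5:92348890-92349139, - strand: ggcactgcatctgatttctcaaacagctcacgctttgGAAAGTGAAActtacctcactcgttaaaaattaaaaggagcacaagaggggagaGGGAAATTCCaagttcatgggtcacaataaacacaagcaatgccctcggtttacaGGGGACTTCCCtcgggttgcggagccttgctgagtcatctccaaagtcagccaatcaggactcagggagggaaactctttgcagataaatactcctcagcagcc
Cxcl9, chr5:92328080-92328329, - strand: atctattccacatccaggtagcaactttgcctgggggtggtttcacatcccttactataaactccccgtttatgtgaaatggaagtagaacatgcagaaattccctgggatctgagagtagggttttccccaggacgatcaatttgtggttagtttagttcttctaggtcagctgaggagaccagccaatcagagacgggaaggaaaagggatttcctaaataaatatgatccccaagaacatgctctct

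In the <i>Cxcl10</i> window the interferon-stimulated element matched at -213 to -204 from the start site, and the NF-kappaB consensus at -159 to -150, at -104 to -95 and at -103 to -94, of which the last 2 positions overlap. The interferon-gamma-activated site had no match there. The other 5 windows, that of <i>Cxcl13</i> included, held none of the 3 motifs in these letters. Of all 32851 windows of this length in the table, 2.98% hold the interferon-stimulated element, 7.02% the interferon-gamma-activated site and 7.25% the NF-kappaB consensus. A match describes the letters and is not a measured binding site.

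The CC chemokines had differences between 0.38 and 2.40 in 79Q and between 0.39 and 2.72 in 18Q. <i>Ccl5</i>, which T cells and NK cells make in quantity and which acts on T cells and myeloid cells, had 8.94, 9.38 and 10.45 in 79Q mice. The 18Q mice had 10.15, 9.72, 10.19, 10.44 and 8.71, against 7.14, 7.30, 7.10, 6.90 and 7.17 in WT control mice. The groups lay far apart, with a log2(FC) of 2.40 ± 0.26 in 79Q (adjusted p = 2.1e-05) and 2.72 ± 0.28 in 18Q (adjusted p = 1.7e-05). <i>Ccl3</i>, a ligand of CCR1, had 7.25, 7.60 and 8.79 in 79Q mice. Its values were 7.90, 7.78, 8.51, 8.24 and 7.46 in 18Q mice, against 6.43, 6.46, 6.47, 6.39 and 6.17 in WT control mice. It rose by 1.37 ± 0.22 in 79Q (adjusted p = 0.00182) and by 1.59 ± 0.25 in 18Q (adjusted p = 0.000986), without overlap.

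The CCR2 ligands <i>Ccl2</i>, <i>Ccl7</i> and <i>Ccl12</i>, and the CCR8 ligand <i>Ccl8</i>, lie in a cluster on chromosome 11 with <i>Ccl11</i> and <i>Ccl1</i>, and their differences were all under 1 log2 unit. <i>Ccl12</i> had 5.75, 6.08 and 6.63 in 79Q mice. In 18Q mice it had 6.88, 6.43, 6.46, 6.46 and 5.99, against 5.60, 5.59, 5.44, 5.31 and 5.61 in WT control mice. It rose by 0.60 ± 0.14 in 79Q (adjusted p = 0.0258) and by 0.93 ± 0.15 in 18Q (adjusted p = 0.00144). <i>Ccl2</i> had 7.11, 7.42 and 8.05 in 79Q mice. The 18Q mice had 7.75, 7.56, 7.94, 7.93 and 6.97, against 6.90, 6.67, 6.93, 6.73 and 6.77 in WT control mice. The lowest 18Q mouse exceeded the highest control by only 0.04, and <i>Ccl2</i> rose by 0.67 ± 0.17 in 79Q (adjusted p = 0.0459) and by 0.83 ± 0.19 in 18Q (adjusted p = 0.0205). The call of <i>Ccl2</i> in 79Q was lost in 9 of the 13 fits that left out a mouse (79Q replicates 2, 5, 7 and 8 and all 5 WT control mice, adjusted p between 0.0705 and 0.126). In 18Q it was lost without 18Q replicates 1, 3 or 4 or WT control replicates 2 or 5 (0.0577 to 0.0766). The call of <i>Ccl12</i> in 79Q was lost without 79Q replicate 8 or WT control replicates 2, 4 or 5 (0.0527 to 0.0932).

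<i>Ccl7</i> and <i>Ccl8</i> each passed in only 1 of the comparisons with WT. <i>Ccl7</i> had 6.91, 7.09 and 7.39 in 79Q mice. In 18Q mice the values were 7.57, 7.09, 7.37, 7.75 and 6.84, against 6.74, 6.82, 6.80, 6.43 and 6.75 in WT control mice. Its log2(FC) was 0.38 ± 0.12 in 79Q (adjusted p = 0.141) although no 79Q mouse overlapped with the controls (exact permutation p = 0.00155, two-sided, 8 against 5), and it rose by 0.61 ± 0.14 in 18Q (adjusted p = 0.0201). When only the groups compared were fitted, these calls changed places, with an adjusted p of 0.0303 in 79Q and 0.104 in 18Q. Without 18Q replicates 1, 3 or 4 or WT control replicate 5, the 18Q call was also lost (0.0551 to 0.0707). <i>Ccl8</i> had 5.84, 6.05 and 6.74 in 79Q mice. The 18Q mice had 6.08, 5.97, 5.92, 6.23 and 5.49, against 5.54, 5.71, 5.46, 5.64 and 5.38 in WT control mice. It rose by 0.58 ± 0.13 in 79Q (adjusted p = 0.0244), a call lost without any of WT control replicates 1, 4, 5 or 7 (0.0504 to 0.0739). In 18Q the log2(FC) was 0.39 ± 0.14 (adjusted p = 0.233), with 4 of 5 mice above the mean of the controls and replicate 6 below it (exact permutation p = 0.0317, two-sided, 5 against 5).

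Exact two-sided permutation tests of the single genes, with no adjustment over genes, gave a p under 0.05 for 10 of 10 genes in 79Q vs. WT and for 10 of 10 in 18Q vs. WT. With these numbers of mice, p can fall no lower than 0.000777 in 79Q vs. WT and 0.00794 in 18Q vs. WT. By limma, 10 of 10 genes had an unadjusted p under 0.05 in the direction of an increase in each of these comparisons, with 5.65% of all probe sets in 79Q and 6.15% in 18Q.

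Whether the length of the CAG repeat mattered was addressed by 79Q vs. 18Q. None of the 10 genes passed there (adjusted p = 0.99997 for each), and neither did any other of the 34760 probe sets, with 0% called. At an unadjusted p under 0.05, 1 of the 10 genes (<i>Ccl12</i>) passed, with a lower value in 79Q, as did 923 probe sets (2.66%) in that direction. The mean was higher in 79Q for 2 of 10 genes, <i>Cxcl9</i> and <i>Ccl8</i>, and lower for the other 8, and it was higher for 45.4% of all probe sets. The largest difference was that of <i>Cxcl10</i>, with a log2(FC) of -0.51 (95% CI -1.11 to 0.10), and for <i>Cxcl13</i> it was -0.39 (95% CI -0.98 to 0.20). <i>Ccl12</i> had the smallest exact permutation p of the 10 (log2(FC) -0.34, 95% CI -0.62 to -0.05, p = 0.0676, two-sided, 8 against 5), with 7 of 8 79Q mice below the 18Q mean. <i>Cxcl9</i> differed least, at 0.02 (95% CI -0.48 to 0.53). These intervals leave room for differences of up to about 1 log2 unit for <i>Cxcl13</i> and <i>Cxcl10</i>.

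**Figure D2:**
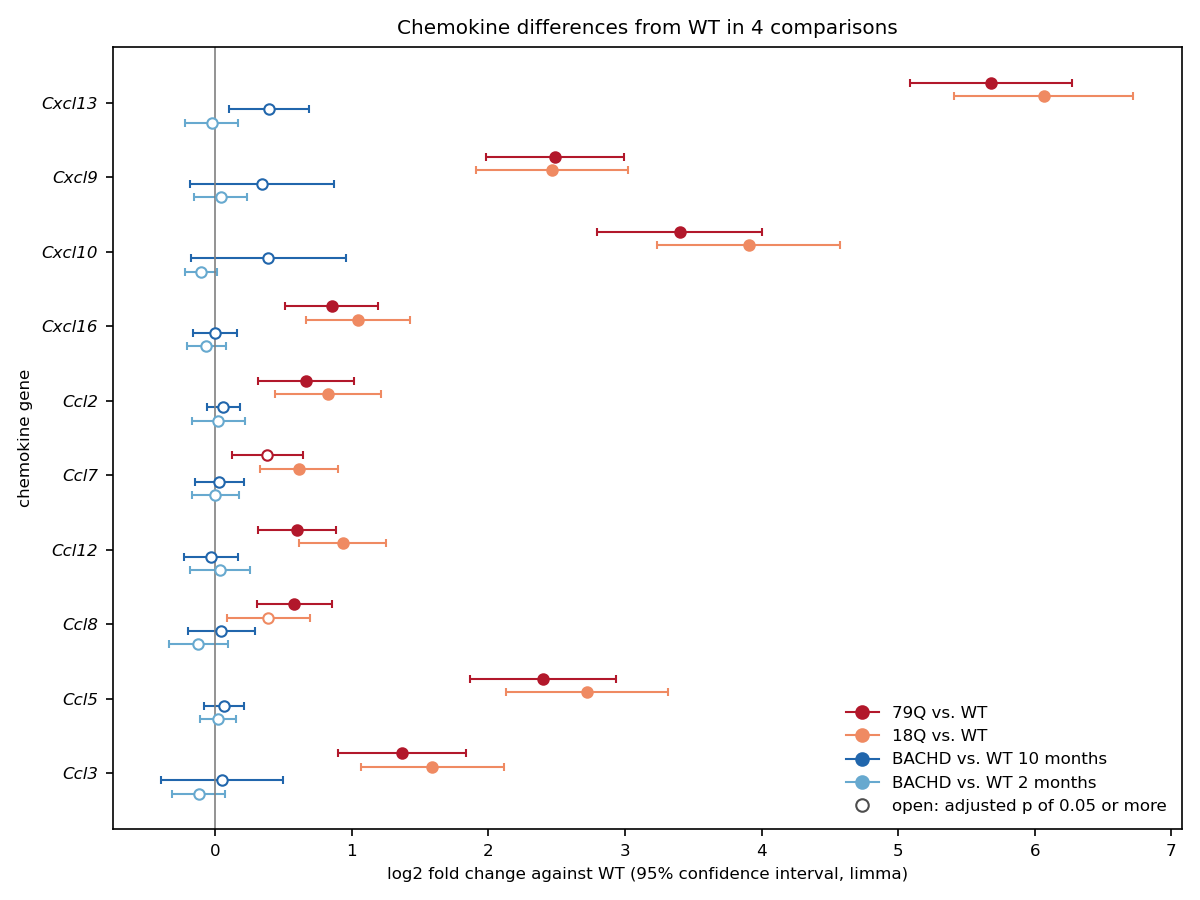
Log2 fold change against WT (horizontal axis) of each chemokine (vertical axis) in 4 comparisons, with limma's 95% confidence intervals; filled points passed the adjusted p of 0.05 and open points did not. <i>Cxcl13</i> stands at 5.68 in 79Q and 6.07 in 18Q, against 0.39 in BACHD at 10 months and -0.03 at 2 months, where all points are open.

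The same few mice stood at both ends of the order for most of the 10 genes. Of the 13 injected mice, 79Q replicate 7 had the highest value in 7 of 10 genes, 18Q replicate 1 in 2 and 18Q replicate 4 in 1. At the other end, 18Q replicate 6 had the lowest value in 7 genes and 79Q replicate 3 in the other 3. Averaged over the 10 genes, 79Q replicate 7 lay 2.61 log2 units above the mean of the WT control mice and 18Q replicate 6 lay 1.30 above it, whereas the control mice themselves lay between -0.06 and 0.08. The group means of this average were 1.84 ± 0.35 in 79Q (SD, n = 8), 2.06 ± 0.47 in 18Q (n = 5) and 0.00 ± 0.05 in WT control mice (n = 5). For 9 of the 10 genes the SD was larger in 79Q than in WT control mice, and for all 10 it was larger in 18Q. <i>Ccl7</i> was the exception, with an SD of 0.157 in 79Q and 0.158 in WT control mice.

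**Figure D3:**
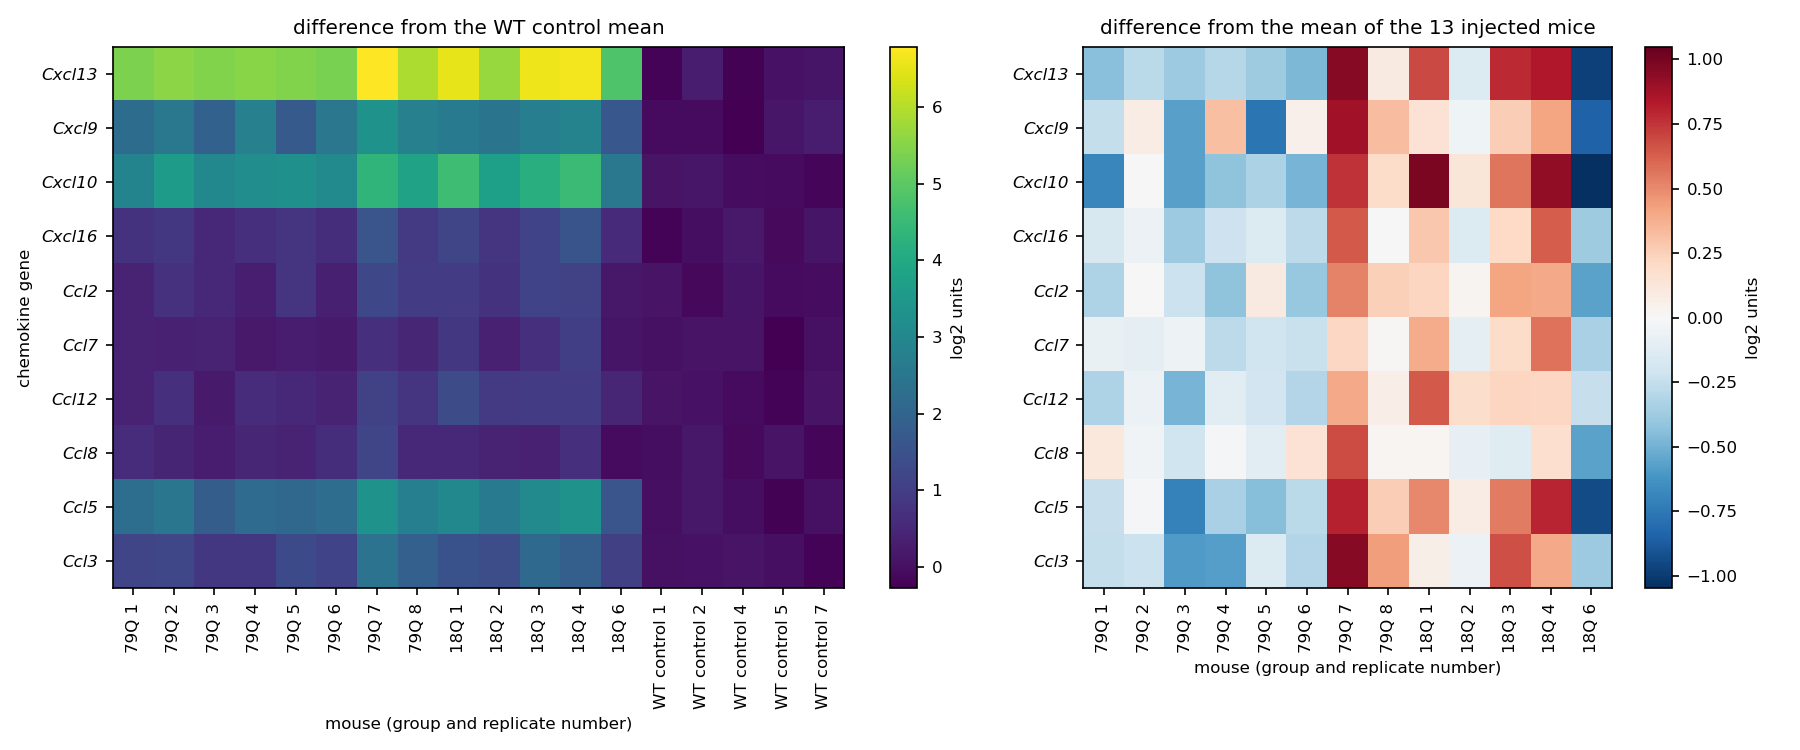
Each column is a mouse and each row a chemokine; colour gives the difference in log2 units from the WT control mean (left, 18 mice) or from the mean of the 13 injected mice (right). The columns of 79Q replicate 7 and 18Q replicate 6 keep to the same side of the mean of the injected mice through all 10 rows on the right, above it for 79Q replicate 7 and below it for 18Q replicate 6.

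After the group means were taken off, all 45 pairs of the 10 genes correlated positively over the 18 arrays of the vector experiment, with Pearson's r between 0.557 (<i>Cxcl9</i> and <i>Ccl7</i>) and 0.943 (<i>Cxcl10</i> and <i>Ccl5</i>) and a median of 0.798. <i>Ccl5</i> had the highest median r with the other genes (0.850) and <i>Ccl12</i> the lowest (0.733). The points share arrays, and 13 of the 18 are injected mice. Among 740 genes that varied between mice (residual SD over 0.2), those most like the mean of the 10 chemokines by the same measure were <i>Zbp1</i> (r = 0.973), <i>Ifi27l2a</i> (0.965), <i>Ly6i</i> (0.961), <i>AW112010</i> (0.959) and <i>Casp4</i> (0.954). <i>Zbp1</i> encodes a sensor of nucleic acids, <i>Ifi27l2a</i> is an interferon-induced gene and <i>Casp4</i> encodes an inflammatory caspase. All 5 rose in 18Q, by 0.85 to 1.67, with 1.81% of all probe sets called higher. In 79Q 4 of them rose, with 1.49% of all probe sets called higher, and <i>Casp4</i> had a log2(FC) of 0.57 (adjusted p = 0.0883). These 5 were picked for varying with the chemokines over arrays that are mostly of injected mice. Their increases are therefore no independent finding.

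The receptors of these ligands were examined next. None of the 7 receptors measured passed in 79Q or in 18Q. <i>Cxcr6</i>, the receptor of CXCL16, came nearest. It had 5.55, 5.88 and 6.49 in 79Q mice. In the 18Q group it had 6.27, 5.84, 6.30, 6.42 and 5.73, against 5.57, 5.76, 5.49, 5.41 and 5.39 in WT control mice. Both injected groups overlapped with the controls at the lower end, and the log2(FC) was 0.41 ± 0.15 in 79Q (adjusted p = 0.198) and 0.59 ± 0.17 in 18Q (adjusted p = 0.091). <i>Cxcr3</i>, the receptor of CXCL9 and CXCL10, had 0.22 and 0.33. For <i>Ccr2</i>, the monocyte receptor, the log2(FC) was 0.15 in 79Q (adjusted p = 0.282) and 0.18 in 18Q (adjusted p = 0.245), and all 8 of the 79Q mice lay above the controls, the lowest by 0.02. <i>Cxcr5</i>, the receptor of CXCL13, differed least from WT among the CXC receptors, with 0.04 (95% CI -0.12 to 0.20) in 79Q and 0.07 (95% CI -0.10 to 0.25) in 18Q. <i>Ccr1</i>, <i>Ccr3</i> and <i>Ccr8</i> had log2(FC) between -0.09 and 0.11. The mean level of the 7 receptors was low, between 5.22 and 5.54 in injected mice and between 5.15 and 5.28 in WT control mice.

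Of 28 other chemokines 26 were measured, of which 1 rose in 79Q (1.49% of all probe sets were called higher) and 2 rose in 18Q (1.81%), with a median log2(FC) of 0.00 and 0.02. The gene that rose in both was <i>Cxcl11</i>, the third ligand of CXCR3, with 7.41, 7.72 and 8.11 in 79Q mice. Mice of the 18Q group had 8.64, 8.11, 8.35, 8.38 and 7.28, against 7.14, 6.74, 7.33, 6.82 and 6.88 in WT control mice. It rose by 0.78 in 79Q (adjusted p = 0.0306) and by 1.17 in 18Q (adjusted p = 0.00258), and the lowest 18Q mouse, replicate 6, lay within the controls. <i>Ccl9</i> rose by 0.31 in 18Q (adjusted p = 0.0426) and had 0.23 in 79Q (adjusted p = 0.109), <i>Ccl6</i> had 0.24 and 0.26, and the mucosal chemokine <i>Cxcl17</i> had -0.13 and -0.15, which did not pass. On the chromosome, <i>Ccl9</i> lies directly next to <i>Ccl5</i>, and <i>Ccl6</i> directly next to <i>Ccl3</i>. Further direct neighbours of called genes, named after their values were seen, are given next. <i>Ccl11</i>, between <i>Ccl7</i> and <i>Ccl12</i>, had -0.03 in 79Q and 0.01 in 18Q. <i>Ccl1</i>, next to <i>Ccl8</i>, had 0.13 and 0.18. <i>Ccl4</i>, on the other side of <i>Ccl3</i>, had 0.05 and 0.15. <i>Ccl11</i>, <i>Ccl1</i> and <i>Ccl4</i> did not pass in either group.

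Among 14 other chemokine receptors, 2 rose in 79Q and 3 in 18Q. <i>Cx3cr1</i>, the microglial receptor of fractalkine, rose by 0.42 and 0.47, and <i>Ccrl2</i>, a receptor that binds chemerin without signalling, rose by 0.27 and 0.48. <i>Cxcr4</i>, the receptor of CXCL12, rose by 0.32 in 18Q and had 0.18 in 79Q (adjusted p = 0.186). The decoy receptor <i>Ackr1</i> had -0.13 and -0.07. Of 8 genes that process or carry chemokines, only the protease gene <i>Mmp2</i> rose, by 0.80 in 79Q and 0.71 in 18Q. <i>Sdc1</i>, <i>Dpp4</i> and <i>Adam17</i> had 0.18 to 0.25 and did not pass.

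Of 24 measured genes that act upstream of chemokine transcription, 6 rose in 79Q and 8 in 18Q, and none fell. The interferon regulatory factor <i>Irf7</i> had 8.67, 9.01 and 9.92 in 79Q mice and 8.68, 9.41 and 9.97 in 18Q mice (lowest, median and highest), against 6.24, 6.66 and 6.86 in WT control mice. No injected mouse lay within the control range, and <i>Irf7</i> rose by 2.45 in 79Q (adjusted p = 3.0e-06) and by 2.81 in 18Q (adjusted p = 2.1e-06). <i>Irf9</i> and <i>Stat2</i>, whose products form the transcription factor of the type I interferon response, rose by 1.16 and 0.80 in 79Q and by 1.43 and 0.98 in 18Q. The receptor gene <i>Tnfrsf1a</i> rose by 0.64 and 0.61. Of 10 measured adhesion molecules of leukocytes and vessels, 4 rose in 79Q and 6 in 18Q, among them <i>Itgb2</i> (0.85 and 0.99), <i>Selplg</i> (0.45 and 0.58), <i>Icam1</i> (0.56 and 0.62) and <i>Itga4</i> (0.40 and 0.53).

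Markers of the cells that these chemokines attract were counted by lineage. Of 7 B cell markers, none passed in 79Q or 18Q. <i>Cd79a</i>, part of the B cell receptor, came nearest in 79Q, with 0.58 (adjusted p = 0.0923) and 0.62 in 18Q (adjusted p = 0.115), and <i>Cd79b</i> had 0.39 and 0.57 (adjusted p = 0.0801 in 18Q). <i>Cd22</i> had 0.21 and 0.24, and <i>Ms4a1</i> 0.22 and 0.32. The mean level of the 7 ran between 5.95 and 6.32 in 79Q mice and between 5.90 and 6.44 in 18Q mice, against 5.86 to 6.01 in WT control mice. Of 9 T cell markers, 4 rose in each injected group. <i>Cd3g</i>, a chain of the T cell receptor complex, had 6.52, 7.18 and 8.16 in 79Q mice. In 18Q mice it had 7.74, 7.24, 8.24, 8.31 and 6.63, against 5.65, 5.63, 5.45, 5.67 and 5.11 in WT control mice. The groups did not overlap, and <i>Cd3g</i> rose by 1.72 in 79Q and by 2.13 in 18Q, with smaller increases of <i>Cd3e</i> (0.55 and 0.70), <i>Cd4</i> (0.40 and 0.47) and <i>Cd8b1</i> (0.36 and 0.39). The mean level of the 9 T cell markers ran between 6.50 and 6.95 in 79Q mice and between 6.49 and 7.05 in 18Q mice, against 6.17 to 6.32 in WT control mice.

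Of 7 markers of monocytes and infiltrating macrophages, 4 rose in each injected group. They were <i>Lyz2</i> (2.65 and 2.55), <i>Fcgr4</i> (0.66 and 0.68), <i>Ms4a7</i> (0.51 and 0.56) and <i>Ms4a4c</i> (0.98 and 1.22, adjusted p = 0.0456 and 0.0203). The mean level below is that of all 7 markers. It ran between 6.07 and 6.93 in 79Q mice and between 6.28 and 6.69 in 18Q mice, against 5.68 to 5.77 in WT control mice. <i>Lyz2</i>, which codes for lysozyme and is also made by activated microglia, had 7.78, 8.999 and 10.21 in 79Q mice. In 18Q mice it had 9.28, 9.20, 8.93, 9.01 and 8.68, against 6.45, 6.48, 6.45, 6.38 and 6.58 in WT control mice. The highest <i>Lyz2</i> value was that of 79Q replicate 1, whose 10 chemokines had a median rank of 9.5 of 13, so that the order of mice was not the same for both. Of 6 NK and cytotoxic cell markers, <i>Nkg7</i> rose in 18Q (0.95) and had 0.78 in 79Q (adjusted p = 0.0591). Of 5 neutrophil markers, none passed, and <i>S100a9</i>, <i>Ly6g</i>, <i>Retnlg</i> and <i>Mmp8</i> had log2(FC) between -0.18 and 0.09.

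Of 5 dendritic cell markers, <i>Itgax</i> rose in both (0.72 in 79Q and 0.71 in 18Q), and <i>Clec9a</i>, <i>Xcr1</i> and <i>Zbtb46</i> did not pass. Of 7 microglial markers, only <i>Tmem119</i> rose (0.61 and 0.89), with <i>Aif1</i> at 0.34 and 0.51, <i>Sall1</i> at 0.18 and 0.23 and <i>Fcrls</i> at -0.22 and -0.11. Of 6 astrocyte markers, none passed in 79Q, and <i>Gfap</i> (0.77) and <i>Aqp4</i> (0.52) rose in 18Q. These 2 had 0.46 and 0.34 in 79Q. <i>Aldh1l1</i> had 0.25 in 79Q and 0.13 in 18Q, and <i>Slc1a3</i> had -0.19 and -0.08. Of the 6, 4 were above 0 in 79Q and 3 in 18Q, with a median of 0.14 and 0.04. <i>Cldn5</i> of endothelial cells rose by 0.37 in 18Q and had 0.24 in 79Q (adjusted p = 0.162), as 1 of 5. No marker of neurons, hypothalamus, thalamus or pituitary passed. The 11 hypothalamic markers had a median log2(FC) of -0.28 in 79Q and -0.15 in 18Q. The pituitary markers had a median of 0.002 in 79Q (3 of 5 above 0) and 0.08 in 18Q (5 of 5 above 0). Their highest values were those of <i>Prl</i>, 1.504 in 79Q and 3.13 in 18Q, and <i>Cga</i> had -0.52 and 0.01. The part of leukocyte, microglial and astrocyte numbers in the chemokine values was not tested.

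**Figure D4:**
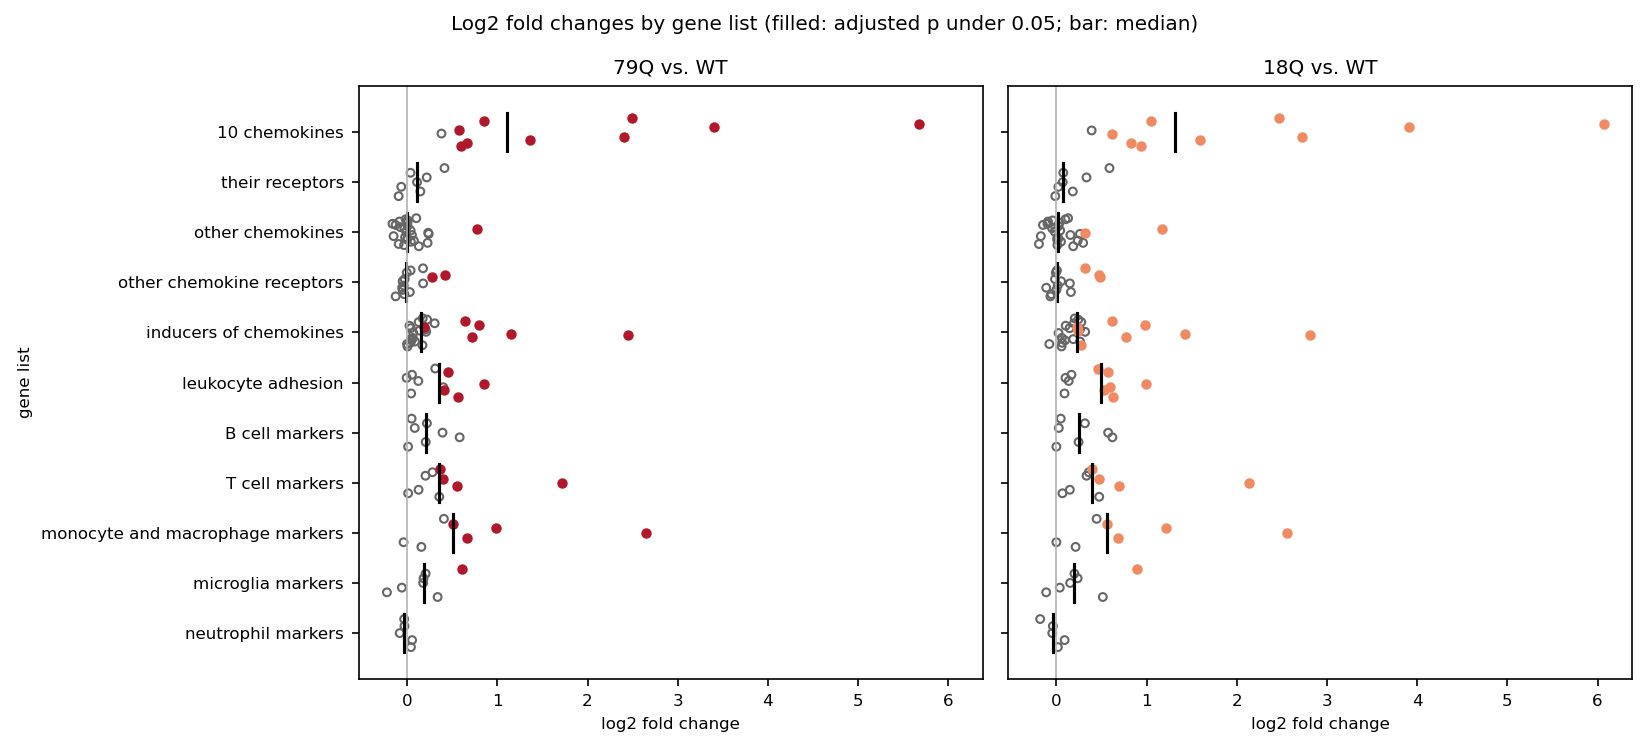
Log2 fold change (horizontal axis) of the measured genes of each list (vertical axis) in 79Q vs. WT (left) and 18Q vs. WT (right); each point is a gene, filled where the adjusted p was under 0.05, and the bar is the list's median. The 10 chemokines have a median of 1.11 and 1.32, against 0.00 and 0.02 in the 26 other chemokines. The 10 were chosen with earlier results of these data known, so that this gap is no independent finding.

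In BACHD mice no chemokine passed at either age, and 0% of all probe sets were called. At 10 months, <i>Cxcl13</i> had 6.33, 6.66, 6.59, 6.29 and 6.78 in BACHD mice, against 6.27, 5.95 and 6.18 in WT mice. All 5 BACHD mice lay above all 3 WT mice, the lowest by 0.01, with a log2(FC) of 0.39 ± 0.13 (95% CI 0.10 to 0.69, adjusted p = 0.997, exact permutation p = 0.0357, two-sided, smallest possible 0.0179). It was the only 1 of the 10 genes without overlap, and 1.93% of all probe sets were separated in this direction. In the same mice, 5 of 5 thalamic markers had a log2(FC) above 0 (median 0.37, highest 0.96), as did 5 of 5 pituitary markers (median 0.17, highest 1.66), none of which passed. The mean of the thalamic markers ran between 8.81 and 10.01 in BACHD mice, against 8.47 to 9.32 in WT mice, and that of the pituitary markers between 6.38 and 8.41 in BACHD mice, against 6.02 to 8.12 in WT mice. Their part in the <i>Cxcl13</i> value was not tested. <i>Cxcl10</i> had 6.26, 6.96, 7.03, 5.90 and 6.69 in BACHD mice, against 6.17, 6.11 and 6.26 in WT mice, which gave 0.39 (95% CI -0.18 to 0.96). <i>Cxcl9</i> had 6.69, 7.47, 6.43, 6.43 and 6.999, against 6.41, 6.55 and 6.41 (0.34, 95% CI -0.18 to 0.87). For both genes some BACHD mice exceeded all WT mice and others lay among or below them. The other 7 genes had log2(FC) between -0.03 and 0.06, with <i>Ccl3</i> spread widely in both groups (6.59 to 7.37 in BACHD mice and 6.79 to 7.33 in WT mice).

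At 2 months, the log2(FC) of the 10 genes ran between -0.12 (<i>Ccl8</i>) and 0.04 (<i>Cxcl9</i>), and none of the 10 genes was without overlap between the groups (0.0259% of all probe sets were separated upward and 0.0949% downward). <i>Cxcl13</i> had 5.73, 5.90 and 5.98 in BACHD mice, against 5.67, 5.89 and 6.25 in WT mice (lowest, median and highest). <i>Cxcl10</i> had 5.92, 6.07 and 6.09 in BACHD mice, against 6.08, 6.10 and 6.29 in WT mice. Here 6 of 6 BACHD mice lay below the WT mean (log2(FC) -0.10, adjusted p = 0.939, exact permutation p = 0.0173, two-sided, 6 against 6). The median log2(FC) of all probe sets was -0.03 at this age, and that of <i>Cxcl10</i> ran between -0.10 and -0.05 under the alternatives of processing. The difference between the genotype effects at 10 months and at 2 months was 0.49 for <i>Cxcl10</i> (95% CI 0.04 to 0.95) and 0.42 for <i>Cxcl13</i> (95% CI 0.09 to 0.75), and passed for none of the 10 genes (adjusted p = 0.9996 for each, with 0% of all probe sets called). At an unadjusted p under 0.05 these 2 genes passed, as did 2.07% of all probe sets in that direction. The thalamic markers had a median log2(FC) of -0.34 at 2 months and a median difference between ages of 0.62, and the pituitary markers -0.32 and 0.58, none of which passed, and their part was not tested. Age and experiment cannot be told apart here, since each age was measured in its own set of arrays.

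The vector experiment and the BACHD experiment at 10 months were set against each other as effects, each vector group or BACHD against its own WT mice. The 79Q effect exceeded the BACHD effect for 6 of 10 genes, with 0.619% of all probe sets called in that direction, by 5.29 ± 0.35 for <i>Cxcl13</i>, 3.01 ± 0.37 for <i>Cxcl10</i>, 2.34 ± 0.31 for <i>Ccl5</i>, 2.14 ± 0.33 for <i>Cxcl9</i>, 1.31 ± 0.30 for <i>Ccl3</i> and 0.85 ± 0.20 for <i>Cxcl16</i> (SE, adjusted p between 4.2e-12 and 0.0312). The 18Q effect exceeded it for these 6 and for <i>Ccl12</i> (0.97 ± 0.20), with 0.886% of all probe sets called. For <i>Ccl2</i>, <i>Ccl7</i> and <i>Ccl8</i> neither difference passed, with 0.61, 0.35 and 0.53 in 79Q and 0.77, 0.58 and 0.34 in 18Q. The call of <i>Cxcl16</i> for 79Q was lost in 9 of 21 fits that left out a mouse (WT control replicates 1, 2 and 5, BACHD replicates 2, 3 and 4, and each WT mouse of 10 months, adjusted p between 0.0534 and 0.165). That of <i>Ccl3</i> was lost without BACHD replicate 4 (0.0595) or WT replicate 1 of 10 months (0.167). Without 18Q replicate 6, the difference for 18Q also passed for <i>Ccl2</i> (0.93, adjusted p = 0.00445) and <i>Ccl7</i> (0.70, adjusted p = 0.00855). Model, age, injection and array set differ together in this comparison and cannot be told apart.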

How the data were processed

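The deposited values were log2 intensities of 34760 probe sets on 38 Affymetrix Mouse Gene ST arrays, made by the authors from raw array files with ReadAffy and RMA (affy 1.70.0, R 4.1.1), which subtracts background, quantile normalizes the arrays and summarizes probes by median polish. The authors omitted samples with an RNA integrity number under 7. Whether RMA was run once or per experiment is not given in the sources used here. Pairs of arrays of an experiment shared 0 to 22 identical values (tolerance 1e-09) and pairs across experiments 0, and 3 separate runs were assumed. RMA tends to shrink differences of weakly expressed genes toward zero.

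Symbols came from the platform table: 21640 probe sets have 1 symbol, 1321 have several and 11799 are not listed. Probe sets with several symbols were tested but not named. limma 3.58.1 (R 4.3.3; lmFit, contrasts.fit, eBayes) was fitted to the 18 arrays of the vector experiment together and to each BACHD age alone, and to both experiments for differences of effects. The steps were tested on simulated data. Single genes were also compared by exact permutation of the arrays. Each array is 1 mouse, and precision is limited by how many mice a group holds.

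The members and gene lists were chosen with earlier results of these data known. Named are the 10 chemokines, their receptors, up to 4 genes of each other list that ranked first by p in 79Q vs. WT, and the 5 genes that vary most like the chemokines; neighbours on the chromosome were named in addition, after their values were seen. Alternatives were array centring, a trended robust eBayes fit, joint quantile normalization, a filter on low means, array weights, a replicate block, another set of fitted groups and leaving out each mouse.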

Additional observations from a re-analysis of the deposited data

Results flagged for a closer look

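Among 60 sets of values of a chemokine in a group of 4 to 10 mice, 7 had a highest or lowest mouse that stood apart by Dixon's test, and chance alone gives about 1 in 20. In 79Q replicate 7, 3 genes stood above the other 79Q mice, with <i>Cxcl13</i> at 12.1261 (next highest 11.27), <i>Cxcl16</i> at 7.3568 (next 6.70) and <i>Ccl8</i> at 6.7379 (next 6.20). The other mice that stood apart were single values in WT or BACHD mice. <i>Ccl2</i> was lowest in BACHD replicate 4 at 10 months, at 6.1269. <i>Ccl7</i> was lowest in WT control replicate 5, at 6.4319, and highest in WT replicate 2 at 2 months, at 6.9759. <i>Ccl3</i> was lowest in WT control replicate 7, at 6.1675.

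The effect of the vector against WT differed from that of BACHD at 10 months by a test of the difference itself. For 79Q it differed for <i>Cxcl13</i> (5.2855), <i>Cxcl9</i> (2.1448), <i>Cxcl10</i> (3.0137), <i>Cxcl16</i> (0.853), <i>Ccl5</i> (2.3377) and <i>Ccl3</i> (1.3144), all in log2 units. For 18Q it differed for <i>Cxcl13</i> (5.672), <i>Cxcl9</i> (2.1225), <i>Cxcl10</i> (3.5195), <i>Cxcl16</i> (1.0476), <i>Ccl12</i> (0.9661), <i>Ccl5</i> (2.6586) and <i>Ccl3</i> (1.5396).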

How the results depend on the processing

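In 79Q vs. WT, 9 of 10 chemokines were called, and 7 to 10 were called under the alternatives that kept all 10 genes. In 18Q vs. WT, 9 were called, and 8 or 9 under the alternatives. A filter that kept probe sets with a mean at or above the median left 5 of the 10 genes in each of these comparisons (<i>Cxcl13</i>, <i>Cxcl9</i>, <i>Cxcl10</i>, <i>Ccl5</i> and <i>Ccl3</i>), so that no more than 5 could be called. Their WT control means (5.34 to 7.12) lay below the medians of these arrays (7.38 to 7.46), so that they passed the filter through the injected mice, and their calls under it support nothing. No chemokine was left at 2 months, and that filter gave no value there. Leaving out single mice gave 6 to 9 called genes against WT in 79Q and 7 to 9 in 18Q. For the differences between effects the counts were 4 to 6 of 10 for 79Q and 7 to 9 for 18Q. These fits, those without single mice for the difference between ages and a replicate block within age were chosen after seeing the data. No chemokine was called in 79Q vs. 18Q, in BACHD vs. WT at 10 or 2 months or in the difference between ages under any alternative. <i>Cxcl13</i>, <i>Cxcl9</i>, <i>Cxcl10</i>, <i>Cxcl16</i>, <i>Ccl5</i> and <i>Ccl3</i> kept their call against WT in both injected groups under every alternative other than that filter and without any single mouse. With only the groups compared in the fit, <i>Ccl7</i> passed in 79Q and lost its call in 18Q.

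Whether the replicate numbers pair the mice is not given in the sources used here, and the main fits did not pair them. Same-numbered mice of 2 groups deviated from their group means with correlations between -0.32 and 0.39, which cannot settle the question. With the replicate number as a block, 7 chemokines were called in 79Q and 9 in 18Q against WT, and 402 and 555 probe sets, against 721 and 735 without it. <i>Ccl2</i> (adjusted p = 0.0631) and <i>Ccl8</i> (0.0813) lost their call in 79Q with the block. Array weights gave 1092 probe sets in 79Q vs. WT. With each array centred on its median, 60.6% of the called probe sets in 79Q and 70.7% in 18Q were higher, against 72.0% and 85.4% as deposited.

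Small differences that had not passed changed sign under some settings, and the cause was not tested. In 79Q vs. 18Q, <i>Cxcl9</i> was -0.013 with array weights and -0.10 with the replicate block. At 2 months <i>Cxcl13</i> was 0.024 with centred arrays, 0.032 with joint quantile normalization and 0.019 with array weights. At 10 months <i>Cxcl16</i> was 0.042 with array weights, and <i>Ccl12</i> was 0.060 with the replicate block. In the difference between ages, <i>Ccl2</i>, <i>Ccl7</i> and <i>Ccl5</i> were -0.022, -0.029 and -0.015 with centred arrays and -0.021, -0.037 and -0.011 with joint quantile normalization, and <i>Ccl12</i> was 0.025 with a replicate block within age. Without single mice, the values ran from -0.19 to 0.13 for <i>Cxcl9</i> in 79Q vs. 18Q. At 10 months they ran from -0.037 to 0.054 for <i>Cxcl16</i>, -0.020 to 0.082 for <i>Ccl7</i>, -0.079 to 0.0047 for <i>Ccl12</i>, -0.063 to 0.12 for <i>Ccl8</i> and -0.062 to 0.21 for <i>Ccl3</i>. At 2 months they ran from -0.073 to 0.043 for <i>Cxcl13</i>, -0.0011 to 0.085 for <i>Cxcl9</i>, -0.026 to 0.067 for <i>Ccl2</i>, -0.028 to 0.062 for <i>Ccl7</i>, -0.0038 to 0.11 for <i>Ccl12</i> and -0.0081 to 0.052 for <i>Ccl5</i>. In the difference between ages they ran from -0.0070 to 0.087 for <i>Ccl2</i> and -0.031 to 0.081 for <i>Ccl7</i>. The number of mice limits these comparisons, with 3 WT mice at 10 months.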

Other observations

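Of the related genes measured in BACHD mice, none passed at either age. <i>Ppbp</i>, a platelet chemokine chosen here after its values were seen, had a log2(FC) of 0.61 at 10 months (95% CI 0.17 to 1.06, adjusted p = 0.997) and of 0.18 at 2 months (95% CI 0.03 to 0.33, adjusted p = 0.939). <i>Ccr1</i>, the receptor of CCL3 and CCL5, had -0.23 at 2 months (95% CI -0.42 to -0.04, adjusted p = 0.939). There 6 of 6 BACHD mice lay below the WT mean with the groups overlapping, and the median of all probe sets was -0.03.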
